A study of Mus musculus with 20 samples.

Results

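The genes described here encode the constant regions of antibodies and proteins that the cells secreting them use. They were chosen by symbol: Ighm, Igha, Ighg1, Ighg2b, Ighg2c and Igkc for the constant regions, and Jchain, Mzb1 and Pou2af1 for the plasma cell proteins. All 9 were found among the 47069 genes of the count table, and all 9 had enough counts to enter the 17622 genes tested. RNA-seq had been performed on total RNA from kidneys of 20 male mice of the strain 129SJ x C57Bl/6J (F1), killed at 15 weeks of age. The WT group (n = 5) was wild type and untreated. All other mice were Col4a3-/-, a germline knockout that removes a collagen chain of the glomerular basement membrane and models Alport syndrome, and every cell in them, B cells included, carried it. From 5 weeks of age they received weekly subcutaneous PBS (Veh, n = 6), weekly subcutaneous Lademirsen, an oligonucleotide against miR-21, at 50 mg/kg (Anti-miR-21, n = 6), or ramipril, an inhibitor of angiotensin-converting enzyme, at 11 mg/L in the drinking water (ACEi, n = 3). Per the study's methods, ACEi mice were also given weekly PBS under the skin.

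A B cell carries an antibody built from paired heavy and light chains. Each chain joins a variable region, whose V segment is picked by DNA rearrangement once per clone, to a constant region that sets the antibody class. IgM is made first, and class switching then exchanges Ighm for an Ighg gene, Ighe or Igha, the gene of the class that protects mucosal surfaces. A B cell that becomes a plasma cell makes very large amounts of constant region mRNA and secretes the protein, so these transcripts mark few cells strongly. B and plasma cells are sparse in a healthy kidney and can gather in the interstitium in chronic inflammation.

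Libraries were of even depth, with 28474301 to 29479629 counts on genes, so the counts of a gene set the precision of its level. Levels are CPM values, counts scaled to the size of their library with the trimmed mean of M values (TMM). Col4a3 stood at 194 to 238 CPM in WT and at 27.9 to 46.3 CPM in Veh, without overlap. The tissue is labelled kidney while the extraction text names adipose tissue. The summed level of 8 kidney epithelial markers was at least 3840 CPM in every library. That of 6 adipocyte markers ran from 30.2 to 61.9 CPM in WT, 23.2 to 569.8 in Veh, 46.7 to 381 in Anti-miR-21 and 33.5 to 43.9 in ACEi. Each library came from a different mouse.

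Veh against WT addresses how these genes differ between vehicle-treated Alport kidneys and healthy ones. Of the 9 genes, 8 were higher in Veh by edgeR's quasi-likelihood test with Benjamini-Hochberg adjustment over all genes tested, of which 39.0% were called higher and 34.0% lower. Mzb1 was the exception. The median log2 fold change was 2.13 over the 9 genes and 0.07 over all genes tested. For Ighm, Igha, Ighg1 and Pou2af1 every Veh mouse lay above every WT mouse, which held for 28.8% of all genes tested. In whole tissue, fewer cells of a type and less RNA per cell cannot be told apart. The plot of levels by mouse shows the values behind these counts.

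**Figure D1:**
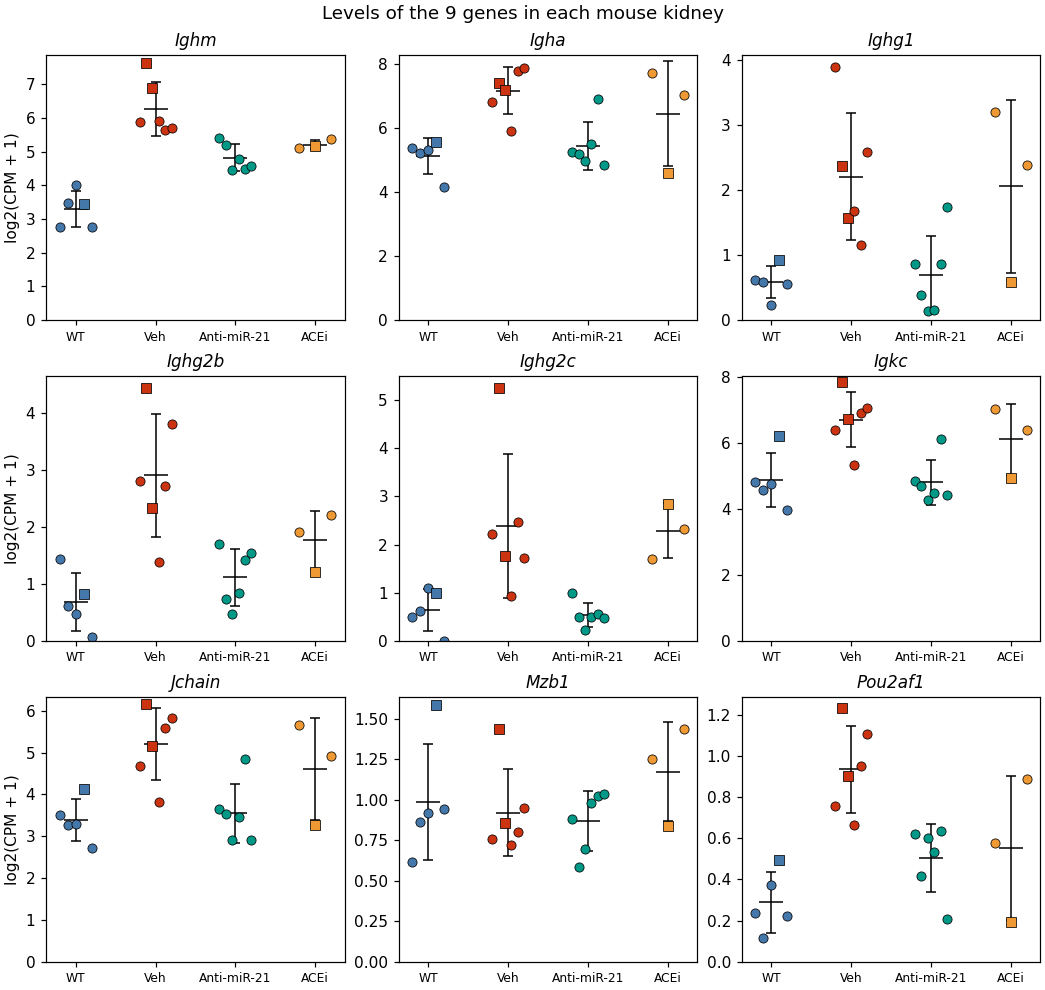
Levels of the 9 genes as log2(CPM + 1) (y axis), with 1 point per mouse for WT (n = 5), Veh (n = 6), Anti-miR-21 (n = 6) and ACEi (n = 3) and the group mean and SD as a dash and bars. Squares mark the 4 mice in which 1 heavy chain V segment took at least 40% of V counts. Apart from Mzb1, Veh has the highest mean, and Ighm alone keeps every Anti-miR-21 mouse above every WT mouse.

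Igha (chr12:113254830-113260236, minus strand, GRCm38), the constant region gene of IgA, had the highest mean level per kilobase of exon of the 5 heavy chain genes among the 9 in WT. It stood at 40.2, 36.3, 38.4, 46.8 and 16.9 CPM in the WT mice A3, A6, A14, A17 and A18. In Veh it stood at 111, 171, 144, 59.0, 219.8 and 235 CPM in A1, A4, A9, A16, A19 and A20. The groups did not overlap, A18 was the lowest WT mouse, and A16 was the Veh mouse nearest to WT. Its log2 fold change was 2.13 ± 0.49 (SE, as for every log2 fold change that follows), with an edgeR adjusted p of 0.000543.

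Ighm (chr12:113418558-113422730, minus strand), the constant region gene of IgM, rose more on the log2 scale. The WT mice, in the same order, stood at 5.84, 10.0, 15.1, 9.97 and 5.79 CPM. The Veh mice stood at 57.9, 198, 118, 58.8, 48.7 and 51.3 CPM. No mouse overlapped, and A4 and A9 lay well above the other 4 Veh mice. Ighm had a log2 fold change of 3.25 ± 0.38, with an edgeR adjusted p of 1.51e-07. Adipocyte markers were high in these 2 mice and in A1, with a mean log2 CPM of 5.63, 5.34 and 5.51, and they ran from -1.33 to 2.20 in the other Veh mice. Igha was highest in A19 and A20, where these markers were lowest. With the adipocyte score as a term in the fit, 8 of the 9 genes were called in Veh against WT, as without it.

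The IgG genes lie between Ighm and Igha on chromosome 12, and they were low in WT and uneven in Veh. Ighg1 ranged from 0.169 to 0.899 CPM in WT and stood at 13.7, 4.16, 1.96, 2.19, 1.21 and 4.97 CPM in the Veh mice A1, A4, A9, A16, A19 and A20 (log2 fold change 3.19 ± 0.81, edgeR adjusted p = 0.00145). Ighg2b ranged from 0.0419 to 1.69 CPM in WT and stood at 5.97, 20.7, 4.03, 1.60, 5.58 and 12.98 CPM in Veh (3.63 ± 0.68, edgeR adjusted p = 6.61e-05). Ighg2c ranged from 0 to 1.14 CPM in WT and stood at 3.68, 36.9, 2.41, 0.895, 4.51 and 2.31 CPM in Veh (3.78 ± 0.87, edgeR adjusted p = 0.000621). A1 led for Ighg1 and A4 for Ighg2b and Ighg2c, so no 1 mouse led for all 3. A4 held 1313 counts of Ighg2c, and the other Veh mice at most 164. Without A4 the log2 fold change of Ighg2c, Veh vs WT, was 2.17 and still called. With each mouse left out in turn, 8 of the 9 genes were called every time.

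The IgG heavy chain genes are related in sequence, so it matters whether reads from one could be taken for another. The hinge exon, exon 2, encodes the flexible stretch between the antigen-binding arms and the tail of each subclass, and it is shown to let the subclasses be compared by eye. The sequences are from GENCODE M21 on GRCm38, minus strand, 5′ to 3′, and capitals mark bases that differ from Ighg2b, or in Ighg2b itself from Ighg2c, in a global alignment.
Ighg1 (chr12:113329844-113329882): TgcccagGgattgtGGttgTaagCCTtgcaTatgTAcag
Ighg2b (chr12:113307261-113307326): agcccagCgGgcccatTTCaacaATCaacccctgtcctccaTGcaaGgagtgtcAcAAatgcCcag
Ighg2c (chr12:113288263-113288325): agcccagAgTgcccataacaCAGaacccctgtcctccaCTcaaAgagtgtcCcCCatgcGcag
Ighg3 (chr12:113360529-113360576): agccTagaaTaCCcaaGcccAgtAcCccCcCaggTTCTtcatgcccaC
The hinge exon of Ighg2c was 77.3% identical to that of Ighg2b, that of Ighg3 50.0% and that of Ighg1 42.4%. Over the annotated transcripts, Ighg2b and Ighg2c were 75.9% identical. Identity is the share of matching bases over the full alignment length, gaps included, so unequal lengths lower it. Of all windows of 100 bases, the length of 1 read, 0% of any of these 4 genes occurred in another annotated gene. C57BL/6 mice carry Ighg2c where 129 mice carry Ighg2a, and how reads of the 129 allele were placed in these crossed mice was not tested.

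Igkc (chr6:70726435-70726966, plus strand) encodes the constant region of the kappa light chain, which pairs with heavy chains of every class. It overlaps the gene model Gm30211 on the same strand, and 0% of the windows of 100 bases of its transcript occurred in a transcript of another gene. The WT mice A3, A6, A14, A17 and A18 stood at 27.4, 22.9, 26.0, 73.3 and 14.8 CPM. The Veh mice A1, A4, A9, A16, A19 and A20 stood at 84.4, 230.4, 105, 39.2, 121 and 134 CPM. A17 in WT exceeded A16 in Veh, and no other WT mouse reached any Veh mouse. For Igkc the log2 fold change was 1.85 ± 0.48, with an edgeR adjusted p of 0.00180. Igkc took 91.8% to 97.6% of light chain constant region counts in each library, and the lambda genes Iglc1, Iglc2 and Iglc3 the rest.

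Jchain (chr5:88519809-88527891, minus strand) encodes the J chain, which joins IgA and IgM into polymers. It stood at 10.3, 8.57, 8.87, 16.5 and 5.62 CPM in WT and at 24.5, 70.5, 34.4, 13.02, 47.1 and 55.6 CPM in Veh, with the mice in the same order. A17 and A16 again crossed, and the other mice kept the groups apart. For Jchain the log2 fold change was 2.03 ± 0.47, with an edgeR adjusted p of 0.000657. Pou2af1 (chr9:51213708-51240080, plus strand) encodes a coactivator that B cells use with the factors that bind the octamer motif in immunoglobulin promoters. It drew only 2 to 48 counts in a library. The WT mice ranged from 0.0820 to 0.409 CPM and the Veh mice from 0.586 to 1.35 CPM, without overlap (log2 fold change 2.02 ± 0.43, edgeR adjusted p = 0.000318).

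Jchain and Pou2af1 moved in the same direction, and their promoter windows, from 250 bases before to 50 bases after the start (RefSeq, GRCm38.p6), are shown for the octamer motif. The table of promoters held these 2 of the 9 genes. Capitals mark the octamer core TGCAAAT, searched on both strands.
Jchain (chr5:88527848-88528147, minus strand): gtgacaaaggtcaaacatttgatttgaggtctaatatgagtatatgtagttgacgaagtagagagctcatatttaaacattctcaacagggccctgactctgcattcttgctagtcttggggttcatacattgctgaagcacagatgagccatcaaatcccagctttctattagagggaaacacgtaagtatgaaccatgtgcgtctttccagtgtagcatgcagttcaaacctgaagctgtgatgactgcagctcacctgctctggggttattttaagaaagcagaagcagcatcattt
Pou2af1 (chr9:51213440-51213739, plus strand): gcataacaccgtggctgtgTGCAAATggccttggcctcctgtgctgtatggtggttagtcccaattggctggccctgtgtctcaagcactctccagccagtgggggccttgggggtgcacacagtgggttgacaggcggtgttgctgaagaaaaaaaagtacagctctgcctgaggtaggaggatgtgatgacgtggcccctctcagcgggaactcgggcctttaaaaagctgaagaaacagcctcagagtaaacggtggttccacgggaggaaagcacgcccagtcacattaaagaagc
The core occurred once in the window of Pou2af1 and not in that of Jchain. Of 32851 promoter windows of this length, 4.02% held the core and 1.74% the full octamer ATGCAAAT, which contains it. A match describes the letters and not a bound site.

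Mzb1 encodes a protein of the endoplasmic reticulum that aids the assembly and secretion of IgM in marginal zone B cells and plasma cells, and it did not follow the other 8 genes. The WT mice A3, A6, A14, A17 and A18 stood at 0.535, 0.820, 0.887, 2.003 and 0.923 CPM, and the Veh mice A1, A4, A9, A16, A19 and A20 at 0.691, 1.71, 0.812, 0.648, 0.742 and 0.931 CPM. The groups overlapped, with A17 the highest in WT and A4 in Veh. The log2 fold change was -0.16 ± 0.33, with an edgeR adjusted p of 0.663, and it turned to 0.41 when only library totals set the scale. Mzb1 drew 12 to 61 counts in a library. Of its windows of 100 bases, 49.4% also occurred in a transcript annotated to SPATA24, while the share was 0% for each of the other 8 genes. How such reads were counted is not given in the sources used here.

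Set per kilobase of all annotated exon bases of a gene, Igkc was highest in WT at 61.8 ± 43.4 CPM per kb (SD, n = 5). Igha followed at 13.4 ± 4.22, then Ighm at 4.95 ± 2.03 and Jchain at 3.96 ± 1.60 CPM per kb, and these last 2 lay within each other's spread. Mzb1 at 0.851 ± 0.463, Ighg2c at 0.461 ± 0.346, Ighg2b at 0.256 ± 0.233 and Ighg1 at 0.197 ± 0.1005 CPM per kb overlapped with their neighbours. The exon bases were 1326 for Ighg2c, 2678 for Ighg2b and 2592 for Ighg1. The transcripts aligned above hold 1214, 1114 and 1076 bases, so the order of these IgG genes depends on the length used. Pou2af1 was lowest at 0.0889 ± 0.0499 CPM per kb. In Veh the first 4 were Igkc at 223.3 ± 120.05, Igha at 58.7 ± 25.0, Ighm at 47.0 ± 31.5 and Jchain at 16.2 ± 8.37 CPM per kb (SD, n = 6), and Igha and Ighm lay within each other's spread.

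Anti-miR-21 against Veh addresses what Lademirsen does to these genes in the diseased kidney. The 8 genes that were higher in Veh than in WT were lower in Anti-miR-21 than in Veh, while 30.5% of all genes tested were called lower and 28.8% higher. Both comparisons use the same Veh mice. The median log2 fold change was -1.76 over the 9 genes and -0.04 over all genes tested. For Ighm and Pou2af1 every Anti-miR-21 mouse lay below every Veh mouse, which held for 17.9% of all genes tested. Libraries came from 2 flow cells. With flow cell as a term, or with the libraries of flow cell A alone, 8 genes were called in this comparison and in Veh against WT. Flow cell B held 2 WT, 2 Veh, 1 Anti-miR-21 and 2 ACEi mice. In its libraries alone, 2 of the 9 genes were called by edgeR in Veh against WT (Ighm and Ighg2b), from 2 mice a group. The share of all genes called in that fit is not given here. Anti-miR-21 had 1 mouse there, assumed in the fit to vary like the other groups, so only effect sizes are given for it. The log2 fold changes of the 8 genes kept their signs there, at 0.97 to 4.13 in Veh against WT and -5.05 to -0.75 in Anti-miR-21 against Veh.

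**Figure D2:**
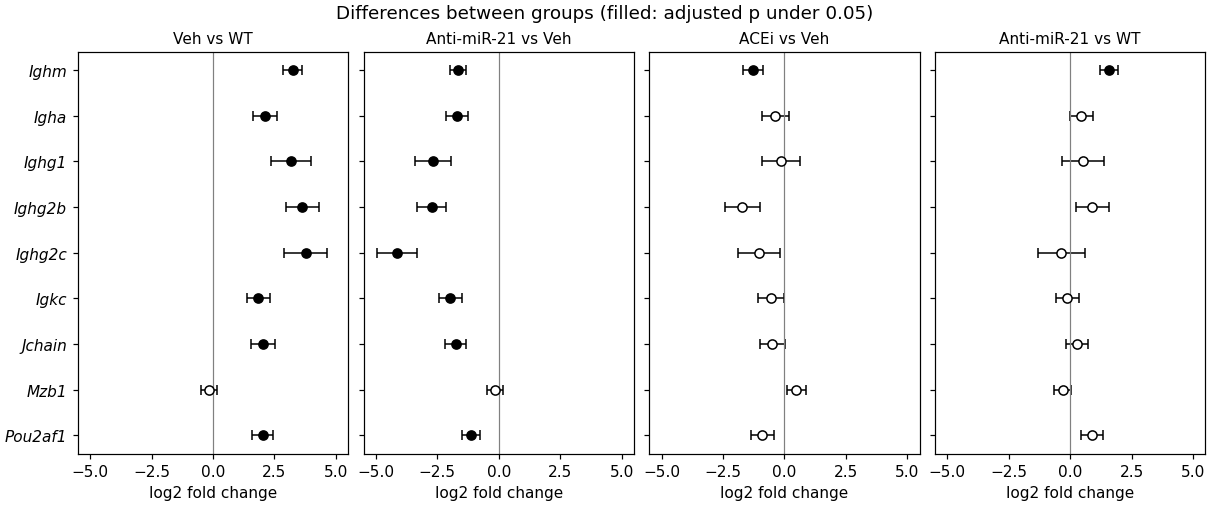
Log2 fold changes (x axis) with SE bars for the 9 genes in 4 comparisons, from 1 edgeR fit over the 20 mice, with filled points for an adjusted p under 0.05. In Veh vs WT 8 genes are higher, in Anti-miR-21 vs Veh the same 8 are lower, and in ACEi vs Veh and in Anti-miR-21 vs WT the 1 filled point is Ighm.

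Ighm stood at 41.7, 36.0, 20.9, 26.3, 21.3 and 22.8 CPM in the Anti-miR-21 mice A2, A8, A10, A12, A15 and A22. All were below the lowest Veh mouse, at 48.7 CPM. The log2 fold change was -1.65 ± 0.32, with an edgeR adjusted p of 0.000191. Igha stood at 37.4, 35.2, 30.6, 44.3, 118 and 27.7 CPM in the same mice. A15 lay inside the Veh range, and the other 5 were below every Veh mouse (log2 fold change -1.68 ± 0.45, edgeR adjusted p = 0.00298).

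A15 stood apart for the light chain and the J chain too. Igkc was at 69.4 CPM in A15 and at most 27.9 CPM in the other treated mice (log2 fold change -1.97 ± 0.45, edgeR adjusted p = 0.000927). Jchain was at 27.5 CPM in A15 and at most 11.5 CPM in the others (-1.76 ± 0.43, edgeR adjusted p = 0.00168). Ighm in A15, at 21.3 CPM, was the next to lowest of its group. So 1 treated kidney held IgA, kappa and J chain transcripts within the Veh range without the same for IgM.

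The IgG genes had the largest log2 differences of the 9. Ighg2c stood at 0.976, 0.402, 0.173, 0.412, 0.480 and 0.388 CPM in A2, A8, A10, A12, A15 and A22, against a Veh median of 3.04 CPM (log2 fold change -4.14 ± 0.82, edgeR adjusted p = 0.000227). Without A4, the Veh mouse with most of its counts, the log2 fold change of Ighg2c, Anti-miR-21 vs Veh, was -2.52 and still called. Ighg1 stood at 0.808, 0.302, 0.104, 0.112, 0.812 and 2.33 CPM (-2.67 ± 0.71, edgeR adjusted p = 0.00319) and was highest in A22. Ighg2b fell from 8.47 ± 7.08 to 1.28 ± 0.762 CPM (SD, n = 6 each, -2.73 ± 0.58, edgeR adjusted p = 0.000440). Pou2af1 fell from 0.931 ± 0.285 to 0.425 ± 0.155 CPM (SD, n = 6 each, -1.12 ± 0.37, edgeR adjusted p = 0.0142). Mzb1 was at 0.837 ± 0.228 CPM in Anti-miR-21, with a log2 fold change of -0.15 ± 0.32 and an edgeR adjusted p of 0.710.

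Anti-miR-21 against WT shows how far treated kidneys stayed from healthy ones. Of the 9 genes, 1 was called higher, while 23.9% of all genes tested were. It was Ighm, at 20.9 to 41.7 CPM in Anti-miR-21 and 5.79 to 15.1 CPM in WT (log2 fold change 1.59 ± 0.36, edgeR adjusted p = 0.00149). The log2 fold change was 0.45 ± 0.47 for Igha, -0.11 ± 0.47 for Igkc and 0.28 ± 0.47 for Jchain. For the IgG genes it was 0.52 ± 0.85 (Ighg1), 0.90 ± 0.69 (Ighg2b) and -0.37 ± 0.96 (Ighg2c). The errors are wide, so these values do not show that the levels were equal. Pou2af1 had a log2 fold change of 0.90 ± 0.45 (edgeR adjusted p = 0.115). It was called with library totals alone (1.14) and without the 4 mice led by 1 V segment (1.23), described further on. Those mice include A17, the highest WT mouse for Pou2af1.

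ACEi against Veh asks the same of ramipril, with 3 mice. Ighm alone was called lower, 1 of 9 genes, while 19.1% of all genes tested were called lower and 21.0% higher. It stood at 33.3, 34.9 and 40.4 CPM in A11, A13 and A23, below every Veh mouse (log2 fold change -1.29 ± 0.41, edgeR adjusted p = 0.0163). This call was lost with the adipocyte score as a term (log2 fold change -0.75, edgeR adjusted p = 0.137), without A11 (log2 fold change -1.23, edgeR adjusted p = 0.0633), without A13 (-1.26, edgeR adjusted p = 0.0639) and in flow cell B alone (-0.69, edgeR adjusted p = 0.0964). An exact two-sided permutation test of log2 CPM gave p = 0.0714 for Ighm, where the smallest p possible is 0.0119. Without the 4 mice led by 1 V segment, Ighm was not called (log2 fold change -0.55, edgeR adjusted p = 0.249) and Mzb1 was called higher (1.03, edgeR adjusted p = 0.0332). That fit leaves out A4, the highest Veh mouse for both genes, and A13, the lowest ACEi mouse for Mzb1.

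The 3 ACEi mice differed widely among themselves in most of the other genes. Igha stood at 210.3, 23.3 and 130.5 CPM in A11, A13 and A23, so A11 lay within the Veh range and A13 within the WT range. Igkc stood at 131, 29.5 and 83.7 CPM and Jchain at 49.2, 8.62 and 29.3 CPM, in the same order of mice. Ighg1 stood at 8.13, 0.501 and 4.19 CPM, again highest in A11 and lowest in A13. Ighg2c went the other way, with 2.26, 6.15 and 4.02 CPM. The log2 fold change against Veh was -0.37 ± 0.54 for Igha, -0.55 ± 0.54 for Igkc, -0.49 ± 0.52 for Jchain and -1.72 ± 0.71 for Ighg2b. None of these passed the edgeR test (lowest adjusted p = 0.0585, for Ighg2b).

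Against WT, 6 of the 9 genes were called higher in ACEi, while 25.2% of all genes tested were. They were Ighm, Igha, Ighg1, Ighg2b, Ighg2c and Jchain, led by Ighg1 (log2 fold change 3.05 ± 0.89, edgeR adjusted p = 0.00779) and Ighg2c (2.75 ± 0.95, edgeR adjusted p = 0.0224). Exact two-sided permutation tests of log2 CPM gave p = 0.0179 for Ighm, the smallest possible, and 0.0357 for Ighg2c. For the other called genes the groups overlapped. Their exact p was 0.161 (Igha), 0.0536 (Ighg1), 0.0714 (Ighg2b) and 0.0893 (Jchain). The count was 2 without A11, 1 in flow cell B alone and 9 without the mice led by 1 V segment. The shares of all genes called in these fits are not given here. The led mice were picked after seeing the data and include A17 and A13. A17 was the highest WT mouse for Igha, Ighg1, Igkc, Jchain, Mzb1 and Pou2af1. A13 was the lowest ACEi mouse for the same genes and Ighg2b, and A11 and A23 alone remain without it. The count of 9 thus follows in part from that choice. Set against each other, Anti-miR-21 and ACEi had 0 of the 9 genes called by edgeR and 0 by DESeq2, while 0.363% of all genes tested were called higher in Anti-miR-21 and 0.221% lower. At an unadjusted edgeR p under 0.05, 5 of the 9 were lower in Anti-miR-21, as were 7.42% of all genes tested. Of these 5, exact permutation tests of log2 CPM gave p = 0.0119 for Ighg2c and 0.0238 for Igkc. For Ighg1, Jchain and Igha the exact p was 0.0952, 0.143 and 0.310. Igha, Igkc and Jchain also varied together from mouse to mouse (Pearson's r of 0.87 to 0.96 with group means subtracted), so they are not separate counts. Ighg2c was nearest to the threshold, at 0.173 to 0.976 CPM in Anti-miR-21 and 2.26 to 6.15 CPM in ACEi without overlap (log2 fold change -3.12 ± 0.91, edgeR adjusted p = 0.117), and it was called when only these 2 groups entered the fit (edgeR adjusted p = 0.00538).

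The makeup of heavy chain transcripts was described by the share of each constant region gene in the counts of all 8 heavy chain genes. Igha held the largest share in WT, with a median of 71.8% and a range of 29.4% to 82.0%, and Ighm came next with a median of 20.6%. The medians for Igha and Ighm were 54.6% and 34.6% in Veh, 53.4% and 40.04% in Anti-miR-21, and 70.6% and 21.9% in ACEi. These are shares of counts, not set per length. The ranges of both genes overlapped between all groups, and the shares were not tested. The IgG genes together held medians of 4.11% in WT, 6.72% in Veh, 2.21% in Anti-miR-21 and 9.63% in ACEi.

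**Figure D3:**
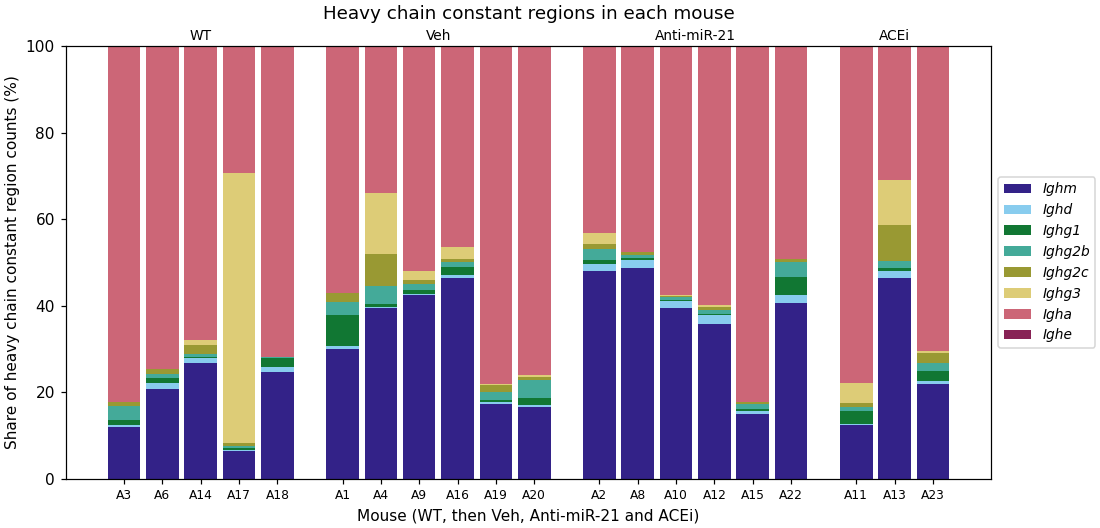
Share of each of 8 heavy chain constant region genes in their summed counts (y axis, %), with 1 stacked bar per mouse, in the order WT, Veh, Anti-miR-21 and ACEi. Igha and Ighm make up most of each bar except that of WT mouse A17, where Ighg3 takes 62.3%.

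Ighg3, the constant region gene of IgG3 and not one of the 9, was highest in 2 mice. It drew 2425 counts in WT mouse A17 and at most 15 in the other WT mice. In Veh it stood at 70.8 CPM in A4 and at most 6.10 CPM in the others. The ACEi mice A11, A13 and A23 stood at 12.9, 7.91 and 0.920 CPM. Ighg3 made up 62.3% of heavy chain counts in A17, 14.1% in A4 and up to 10.5% in ACEi. The fit called it lower in Anti-miR-21, with at most 69 counts in a mouse, than in WT (log2 fold change -5.35 ± 1.84, edgeR adjusted p = 0.0235). In WT the other 4 mice were at 0 to 0.634 CPM, and an exact permutation test of log2 CPM gave p = 0.574. Against Veh, Ighg3 was also called lower in Anti-miR-21 (log2 fold change -4.81 ± 1.79, edgeR adjusted p = 0.0266, exact permutation p = 0.0346).

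Among the other constant regions, Iglc1, a lambda light chain gene, moved as the 8 genes did, with a log2 fold change of 2.71 ± 0.58 in Veh against WT (edgeR adjusted p = 0.000300) and -2.76 ± 0.54 in Anti-miR-21 against Veh (edgeR adjusted p = 0.000190). Ighd is the constant region gene of IgD, a class carried by mature naive B cells. It stood at 0.493 ± 0.236 CPM in WT, 1.19 ± 0.244 in Veh, 1.21 ± 0.274 in Anti-miR-21 and 1.02 ± 0.264 in ACEi (SD). It was higher in Veh than in WT (1.26 ± 0.28, edgeR adjusted p = 0.000466) and higher in Anti-miR-21 than in WT (1.28 ± 0.28, edgeR adjusted p = 0.00127), and between Anti-miR-21 and Veh the log2 fold change was 0.02 ± 0.25. Ighe, the constant region gene of IgE, drew 0 to 6 counts in a library and could not be tested.

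V segments show how evenly the antibody transcripts were spread over the segments. Each clone uses 1 per chain, but different clones can use the same segment, so these counts do not give the number of clones. Whether a leading segment came from 1 clone was not tested. The table listed 185 heavy chain V segments, and a library held 47 to 1343 counts on them. Intervals are exact Clopper-Pearson 95% intervals of these counts and cover counting error only. In 4 mice 1 segment took at least 40% of the heavy chain V counts, a limit set after the values were seen. Ighv2-6-8 took 85.9% in WT mouse A17 (383 of 446 counts, 82.3 to 89.0%), and Ighv5-16 took 47.9% in Veh mouse A4 (643 of 1343, 45.2 to 50.6%). Ighv1-26 took 45.5% in Veh mouse A9 (41.6 to 49.3%), and Ighv1-9 took 51.0% in ACEi mouse A13 (75 of 147, 42.7 to 59.3%). In the other 16 mice the leading segment took 6.67% to 20%.

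The same 4 mice had the 4 highest leading shares among kappa V segments. Igkv5-43 took 70.1% in A17 (666 of 950 counts), and Igkv6-15 took 42.9% in A4 (1369 of 3193). Igkv2-137 took 32.6% in A9 and Igkv3-2 took 27.4% in A13. In the other 16 mice the leading kappa segment took 8.52% to 14.7%. The heavy chain segment of A17 drew at most 2 counts in another mouse and that of A4 at most 14. Ighv1-26, in contrast, was above 0 in all but 1 of the other 19 mice. The leading kappa segments were more widely shared, with up to 226 counts of Igkv5-43 in A11 and 31 of Igkv6-15 in A19. Igkc in A17 and Ighm in A4 and A9, the highest of their groups, come from these libraries. Without the 4 mice, 8 of the 9 genes were called in Veh against WT and 8 in Anti-miR-21 against Veh. The share of all genes called without them is not given here.

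The V segments of A17 and A4 carry this result, and of each the 120 bases of the transcript (GENCODE M21, GRCm38, 5′ to 3′) that differ most from the V segment most like it are shown, with the position of the gene. Capitals mark the differing bases.
Ighv2-6-8 (heavy chain, A17, gene chr12:113796138-113796567, minus strand): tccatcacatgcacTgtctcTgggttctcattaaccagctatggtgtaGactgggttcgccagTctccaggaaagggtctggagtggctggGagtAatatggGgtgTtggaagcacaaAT
Igkv5-43 (kappa, A17, gene chr6:69823355-69823943, minus strand): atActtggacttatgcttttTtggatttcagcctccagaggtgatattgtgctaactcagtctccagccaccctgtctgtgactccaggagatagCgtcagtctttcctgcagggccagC
Ighv5-16 (heavy chain, A4, gene chr12:113838526-113839010, minus strand): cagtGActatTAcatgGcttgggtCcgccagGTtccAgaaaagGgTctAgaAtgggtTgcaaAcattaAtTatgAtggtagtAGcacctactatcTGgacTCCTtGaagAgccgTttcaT
Igkv6-15 (kappa, A4, gene chr6:70406469-70406992, minus strand): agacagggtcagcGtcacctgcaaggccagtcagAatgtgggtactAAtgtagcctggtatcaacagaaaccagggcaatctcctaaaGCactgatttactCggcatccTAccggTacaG
Ighv2-6-8 was 94.9% identical to Ighv2-6, Igkv5-43 96.9% to Igkv5-45, Ighv5-16 75.3% to Ighv5-4 and Igkv6-15 88.9% to Igkv6-23. Gaps count against identity here, also those from unequal transcript lengths. Bases that differed or faced a gap numbered 18 of 350, 6 of 379, 60 of 380 and 19 of 347, in the same order. Of the windows of 100 bases of Igkv5-43, 33.6% also occurred in Igkv5-45, and of those of Igkv2-137, the leading kappa segment of A9, 50.5% also occurred in Gm42889, so the counts of both are uncertain. The share was 7.94% for Ighv1-26, the leading heavy chain segment of A9 (in Ighv1-34), 0.340% for Ighv2-6-8 and 0% for Ighv5-16 and Igkv6-15. Expressed V segments can carry somatic mutations, and how mutated reads were placed was not tested.

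**Figure D4:**
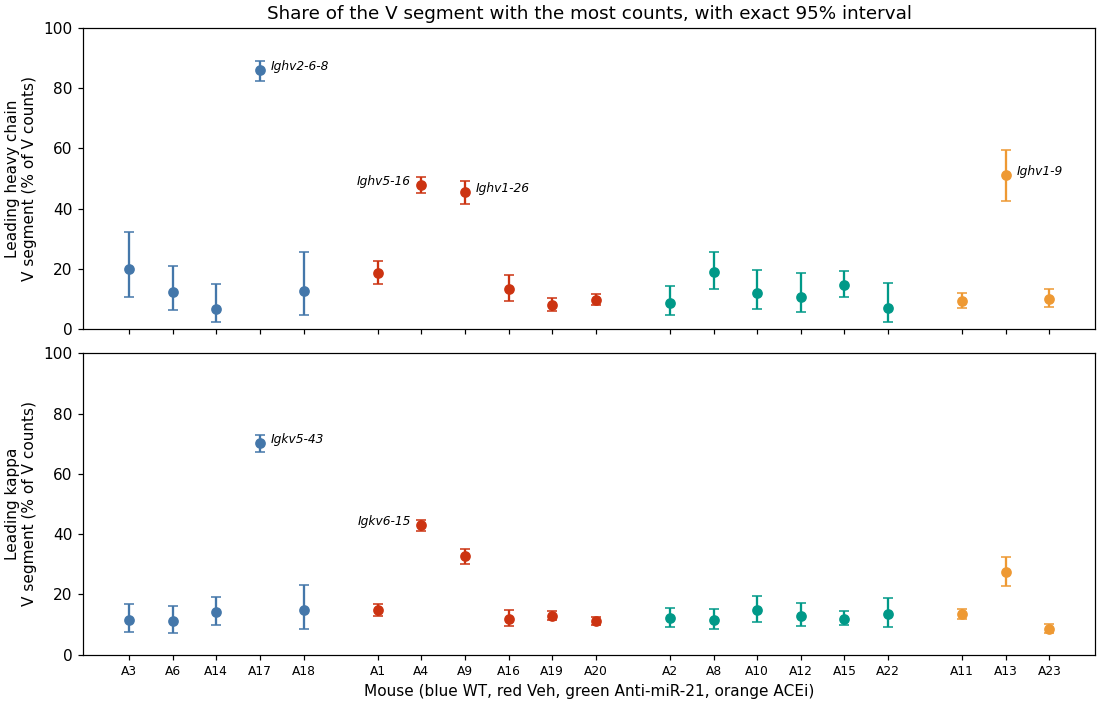
Share of V segment counts taken by the leading heavy chain (top) and kappa (bottom) V segment of each mouse (y axis, %), with exact 95% intervals as bars. A17 and A4 stand apart for both chains, A9 and A13 more for the heavy chain, and no Anti-miR-21 mouse exceeds 18.8% for the heavy chain.

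Diversity was also measured as the effective number of V segments, the inverse of the chance that 2 counts of a library fall on the same segment. For heavy chains it was 20.2 ± 14.3 in WT (SD, n = 5), 17.4 ± 10.8 in Veh (SD, n = 6), 26.1 ± 6.21 in Anti-miR-21 (SD, n = 6) and 22.3 ± 16.2 in ACEi (SD, n = 3). An exact two-sided permutation test gave p = 0.719 for Veh against WT, 0.134 for Anti-miR-21 against Veh and 0.536 for ACEi against Veh. For kappa it was 18.1 ± 9.51, 17.7 ± 9.02, 23.7 ± 2.92 and 19.3 ± 8.28 in the same order, with exact permutation p-values of 0.946, 0.184 and 0.738. The lowest p adjusted over the 6 exact tests was 0.552, so no difference was detectable. The spread within Anti-miR-21 was the smallest of the 4 groups for both chains, which was not tested.

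The 9 genes varied together to different degrees from mouse to mouse. After the mean of each group was subtracted from log2 CPM, Pearson's r over the 20 mice was 0.96 for Jchain and Igkc, 0.94 for Igha and Jchain, and 0.87 for Igha and Igkc. Ighm had an r of 0.06 with Igha and 0.24 with Jchain, and of 0.71 with Ighg2c. Among all genes tested, apart from the 9 and the V, D and J segments, the most like Jchain were Iglc1 (0.84), Plxna4 (0.78), Fgf11 (0.75), Laptm4b (0.74) and Ap4m1 (0.73). Those most like Igkc were Col11a1 (0.80), Iglc1 (0.79), Fgf11 (0.78), Laptm4b (0.75) and Plxna4 (0.74). The first gene was Iglc1 for Igha (0.86), Stum for Ighm (0.81), B230303O12Rik for Ighg1 (0.69), Cd79a for Ighg2b (0.77), Ntng1 for Ighg2c (0.85), Mras for Mzb1 (0.80) and Fgf11 for Pou2af1 (0.79). These are the highest of many values over the same libraries and are given as a description.

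Genes of B cells were read beside the 9 in lists. Of 11 tested B cell identity genes, 8 were called higher in Veh against WT and 0 lower, with a median log2 fold change of 1.74. Cd22, an inhibitory receptor of B cells, had a log2 fold change of 4.13 ± 0.37 (edgeR adjusted p = 3.53e-09) and Spib, a transcription factor of B cells, one of 4.02 ± 0.27 (edgeR adjusted p = 7.41e-11). Ms4a1, which encodes CD20, went from 0.117 ± 0.0447 CPM in WT to 0.403 ± 0.224 CPM in Veh (1.74 ± 0.56, edgeR adjusted p = 0.00911). Cd79a, a part of the B cell receptor, rose too (log2 fold change 1.55 ± 0.32, edgeR adjusted p = 0.000228).

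In Anti-miR-21 against Veh, 6 of the 11 were lower and 0 higher, led by Bank1, an adaptor of B cell receptor signalling (log2 fold change -1.65 ± 0.36, edgeR adjusted p = 0.000596), and Fcer2a, the low-affinity IgE receptor (-1.23 ± 0.36, edgeR adjusted p = 0.00656). Ms4a1 and Cd79a were not called, with log2 fold changes of 0.00 ± 0.44 and -0.19 ± 0.28. The list median was -0.77, beside -1.76 for the 9 genes. Against WT, 7 of the 11 were higher in Anti-miR-21, with a median of 1.28, where 1 of the 9 genes was and their median was 0.45. Of the T cell genes 4 of 5, and of the macrophage genes 5 of 6, were higher in Anti-miR-21 than in WT. Whether these lists differ from the 9 genes was not tested.

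**Figure D5:**
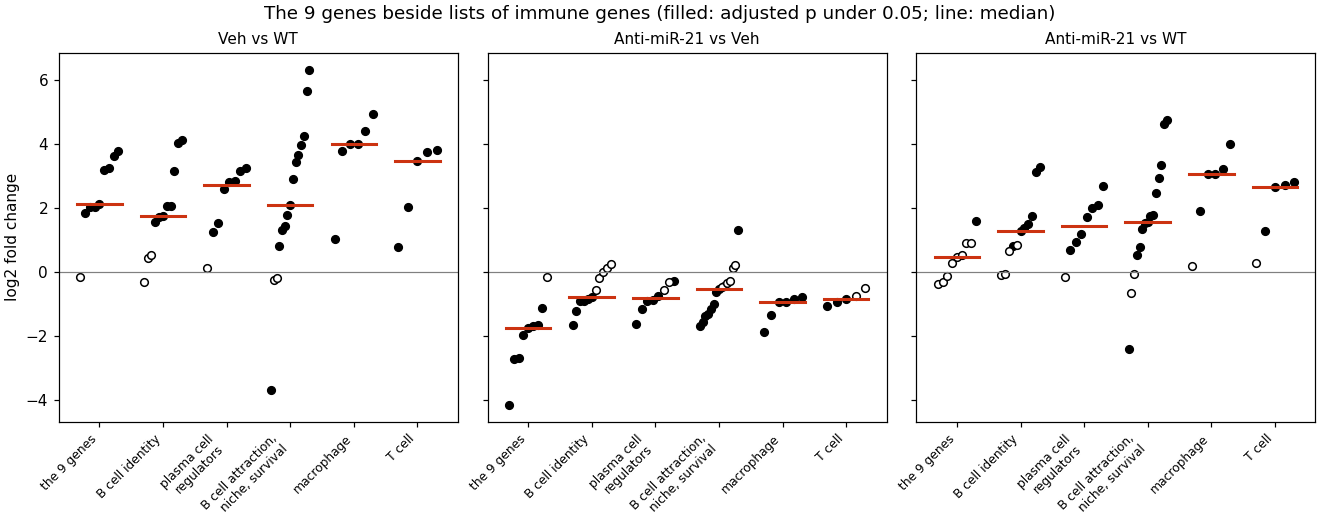
Log2 fold changes (y axis) of the 9 genes and of 5 lists of immune genes in Veh vs WT, Anti-miR-21 vs Veh and Anti-miR-21 vs WT, with 1 point per tested gene, filled for an edgeR adjusted p under 0.05, and a line at each median. The median of the 9 genes is 2.13, -1.76 and 0.45 in the 3 panels, and that of the B cell identity genes 1.74, -0.77 and 1.28.

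Regulators and surface proteins of plasma cells were higher in Veh for 7 of 8 tested genes and lower for 0. Irf4, a transcription factor of plasma cell fate, had a log2 fold change of 2.85 ± 0.31 (edgeR adjusted p = 4.75e-08) and Tnfrsf13b, which encodes the receptor TACI, one of 3.14 ± 0.25 (edgeR adjusted p = 7.53e-10). Prdm1, which encodes BLIMP1, rose as well (1.25 ± 0.27, edgeR adjusted p = 0.000328). Xbp1, which secretory cells of many kinds use, was not called (0.12 ± 0.11, edgeR adjusted p = 0.323). Sdc1 encodes CD138, a marker of plasma cells that epithelium also makes, and it went from 15.2 ± 1.85 CPM in WT to 107 ± 13.5 CPM in Veh (2.82 ± 0.18). Tnfrsf17, which encodes BCMA, drew 0 to 5 counts in a library and could not be tested. In Anti-miR-21 against Veh 6 of the 8 were lower, led by Sdc1 (-1.63 ± 0.16) and Tnfrsf13b (-1.15 ± 0.21). Prdm1 was not called there (-0.31 ± 0.24, edgeR adjusted p = 0.281). The list median was -0.81, beside -1.76 for the 9 genes. Against WT, 7 of the 8 were higher in Anti-miR-21, Prdm1 among them (0.94 ± 0.27, edgeR adjusted p = 0.00875). In ACEi against Veh 3 were lower, Sdc1 (-1.23 ± 0.20), Tnfrsf13b (-0.77 ± 0.26) and Cd38 (-0.68 ± 0.16).

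The machinery of antibody secretion, which other secretory cells share, had few called genes. Of 12 tested genes, 1 was higher in Veh than in WT (Sdf2l1, log2 fold change 0.68 ± 0.26) and 3 were lower, namely Eaf2 (-1.80 ± 0.16), Herpud1 (-1.09 ± 0.16) and Ell2 (-0.76 ± 0.09). Eaf2 and Ell2 act in transcription elongation, and Herpud1 in the degradation of misfolded proteins. With Anti-miR-21 the same 3 were higher than in Veh, led by Eaf2 (1.54 ± 0.16), and 0 were lower. The list median was -0.12 and -0.06 in these comparisons, beside 2.13 and -1.76 for the 9 genes.

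Genes of germinal centres, where B cells mature, were also read as a list. Of 6 tested genes 5 were called higher in Veh against WT and 0 lower, led by Gcsam (2.63 ± 0.28) and the receptor gene S1pr2 (2.49 ± 0.19). Against Veh, 3 were lower in Anti-miR-21 and 0 higher, namely S1pr2 (-0.96 ± 0.16), the repair enzyme gene Ung (-0.76 ± 0.13) and the transcription factor gene Mybl1 (-0.88 ± 0.19).

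Signals that attract B and plasma cells and keep them alive were higher in Veh than in WT for 12 of 15 tested genes and lower for 1. Tnfsf13b, which encodes the survival factor BAFF, went from 0.446 ± 0.0830 CPM in WT to 8.50 ± 1.15 CPM in Veh (log2 fold change 4.24 ± 0.26, edgeR adjusted p = 2.98e-11). Cxcl13, a chemokine of B cell follicles, went from 0.410 ± 0.185 to 3.13 ± 1.83 CPM (2.91 ± 0.37, edgeR adjusted p = 5.99e-07). Tnfsf13, which encodes APRIL, a survival factor of plasma cells, had a log2 fold change of 0.81 ± 0.20 and was called. The gene that fell was Ccl28 (-3.69 ± 0.42), a chemokine of epithelium that attracts IgA plasma cells. In Anti-miR-21 against Veh 9 were lower, Tnfsf13b (-1.31 ± 0.20) and Cxcl13 (-1.39 ± 0.31) among them, and 1 was higher, Ccl28 (1.30 ± 0.39). Against WT, 12 were higher in Anti-miR-21, with Tnfsf13b at 2.93 ± 0.26. In ACEi against Veh the called genes were Ccl28 (2.45 ± 0.45), Cxcl13 (-1.59 ± 0.40), Tnfsf13b (-0.72 ± 0.24) and Ltb (-0.65 ± 0.25).

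Receptors that bind or carry antibodies were read last. Of 10 tested genes, 6 were called higher in Veh against WT and 2 lower. Fcgr1 (5.03 ± 0.21) and Fcgr3 (4.73 ± 0.27), IgG receptor genes of macrophages, rose, and so did 6 of 6 macrophage markers. Fcgrt, the neonatal Fc receptor that recycles IgG, fell by 0.59 on the log2 scale (SE 0.08). Fcamr, a receptor for IgA and IgM, stood at 10.3 ± 1.71 CPM in WT, 1.15 ± 0.328 in Veh and 7.19 ± 1.78 in Anti-miR-21 (log2 fold change -3.16 ± 0.20 in Veh against WT and 2.64 ± 0.20 in Anti-miR-21 against Veh). Pigr, which carries polymeric IgA and IgM across epithelium, was not called in Veh against WT (-0.26 ± 0.18, edgeR adjusted p = 0.202) and was higher in Anti-miR-21 than in Veh (0.78 ± 0.17, edgeR adjusted p = 0.000568). Kidney epithelial markers were lower in Veh than in WT for 6 of 8 and higher in Anti-miR-21 than in Veh for 7, and their part in the levels of these receptors was not tested.

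Among other cell types, 5 of 5 T cell genes and 6 of 6 adipocyte genes rose in Veh over WT, and 5 of 5 erythroid genes were lower. In Anti-miR-21 against Veh, 3 T cell, 6 macrophage and 0 adipocyte genes were lower and 5 erythroid genes higher. In ACEi against Veh, 0 T cell, 6 macrophage and 5 adipocyte genes were lower and 5 erythroid genes higher. Their part in the levels of the 9 genes was not tested beyond the fit with the adipocyte score.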

How the data were processed

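RNA-seq of 20 kidneys was analysed from 2 deposited tables. Per the labels and the study's methods, the authors sequenced paired reads of 100 bases on an Illumina HiSeq, aligned them to GRCm38 with OSA4 in OmicSoft Studio and deposited an estimated count per gene of Ensembl R83. They also deposited FPKM values, fragments scaled to exon length and library size, for gene models of UCSC, miRBase and Ensembl R76. A library table deposited by the authors gave the alignment count of each library (70004591 to 73294858) and its flow cell. In the estimated counts, 27.9% of values above 0 were not whole (tolerance 1e-06). Whether the counting used strand is not given in the sources used here. Columns of 3 further libraries matched no sample and were not used. The library table gives ramipril as 4 mg/kg, and the labels as 11 mg/L in drinking water.

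Estimated counts were rounded. Genes passing filterByExpr (minimum count 10, total 15) were fitted in 1 model over the 4 groups with edgeR's quasi-likelihood test and TMM scaling, and p-values were adjusted by Benjamini-Hochberg over the 17622 genes tested (threshold 0.05). Log2 CPM used a prior count of 2. Mice carry their sample titles. Exact two-sided permutation tests were run on single values over mice. Alternatives were DESeq2, other scalings and filters, robust dispersion, only the groups compared, flow cell, the adipocyte score (mean log2 of CPM + 0.1 over the 6 adipocyte genes), limma on log2(FPKM + 1) and log2(FPKM + 0.1) for the 3 of 9 genes with an FPKM row, and leaving out each mouse. Scripts were tested on simulated data. The 9 genes and all lists were chosen with earlier results of these data known. Besides the 9, the other constant regions were named, with a fixed set of list genes (among them Ms4a1, Cd79a, Prdm1, Xbp1, Sdc1, Tnfrsf17, Cxcl13, Tnfsf13b, Tnfsf13, Pigr and Fcgrt; some are not reported here), at most 4 called genes with the largest change per list and comparison, the genes most alike, and the V segments that led a mouse or were among the 5 highest of a chain. Positions and exon lengths are from GENCODE M21. Tools were R 4.3.3, edgeR 4.0.16, limma 3.58.1, DESeq2 1.42.0, Python 3.11.15, pandas 2.3.3, NumPy 2.4.6, SciPy 1.17.1, Matplotlib 3.10.9 and Biopython 1.88.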

Additional observations from a re-analysis of the deposited data

Results flagged for a closer look

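Within a group, 1 mouse stood farther from the nearest other mouse than Dixon's test allows at its 95% level in 6 cases among 36 sets of values tested, where chance gives about 1 in 20. In WT, Igha had a log2 CPM of 4.08 in A18, and the nearest mouse was at 5.19. The leading V segment of WT mouse A17 took 85.9% of heavy chain V counts, and the next mouse stood at 20%. For kappa it took 70.1%, and the next mouse stood at 14.7%. In Veh, Mzb1 had a log2 CPM of 0.83 in A4 and 0.00 in the next mouse. In Anti-miR-21, A15 stood apart for Igha, with a log2 CPM of 6.89 against 5.47 in the next mouse, and for Igkc, with 6.12 against 4.81. Without A15, the log2 fold change of Igha, Anti-miR-21 vs WT, was -0.029, and with it 0.45.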

How the results depend on the processing

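In Veh against WT and in Anti-miR-21 against Veh, 8 of the 9 genes were called under every alternative in which all 9 could be tested, with each mouse left out in turn included, except in flow cell B alone, an alternative chosen after seeing the data. There 2 were called in Veh against WT, from 2 mice a group. In ACEi against Veh 0 were called (1 at an unadjusted p under 0.05) and in ACEi against WT 1, again from 2 mice a group. No count is given for Anti-miR-21, which had 1 mouse there. The share of all genes called under the alternatives of this section is not given here. With at least 10 counts in every library, 5 could be tested and 4 were called in each comparison, and with either FPKM pseudocount, 3 could be tested and 2 were called. In ACEi against Veh the count of 1 became 2 with library totals alone and with upper-quartile scaling, 0 with the adipocyte score, and 0 to 2 with 1 mouse left out (0 without A11 or without A13, 2 without A16 or without A23). Pou2af1 was the gene called from FPKM in that comparison (-0.28 with a pseudocount of 1). In Anti-miR-21 against ACEi the count was 1 with only these groups in the fit. In Anti-miR-21 against WT it was 2 with library totals alone, 0 of 3 with either FPKM pseudocount and 2 without the 4 mice led by 1 V segment, also chosen after seeing the data. In ACEi against WT it was 1 of 3 with either FPKM pseudocount and 2 to 7 with 1 mouse left out (2 without A11). There Ighg2b lost its call with DESeq2 (DESeq2 adjusted p = 0.0505), robust dispersion (edgeR adjusted p = 0.0512) and the adipocyte score (edgeR adjusted p = 0.0511). Ighg2b was also not called without A6, A14, A17, A18, A11 or A23, each left out alone. Library totals alone moved the median of all genes to 0.65, -0.38 and -0.32 in the first 3 comparisons, from 0.07, -0.04 and -0.05 with TMM.

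Signs turned for log2 fold changes that had not been called. Mzb1 in Veh against WT was 0.41 with library totals alone, 0.41 with flow cell A alone, 0.23 and 0.44 from FPKM, and -0.43 to 0.22 with 1 mouse left out. Set between Anti-miR-21 and Veh it was 0.15 without the led mice and -0.22 to 0.14 with 1 left out. In ACEi against Veh, the values without the led mice were 0.13 for Igha, 0.16 for Ighg1, 0.14 for Ighg2c, 0.19 for Igkc and 0.17 for Jchain. The flow cell term gave 0.011 for Ighg1, and the adipocyte score 0.039 for Ighg1 and 0.18 for Ighg2c. With 1 mouse left out, Igha ran from -1.02 to 0.13, Ighg1 from -0.99 to 0.59 and Ighg2c from -1.42 to 0.61. In Anti-miR-21 against ACEi, Pou2af1 ran from -0.65 to 0.41. In Anti-miR-21 against WT, Igkc was 0.11 with library totals alone, 0.39 with flow cell A alone and 0.43 without the led mice, and Mzb1 was 0.25 with flow cell A alone, 0.019 from FPKM and 0.083 without the led mice. The difference in mean log2 CPM was -0.0055 for Ighg1 and 0.048 for Ighg2c. With 1 mouse left out, Igha ran from -0.029 to 0.57, Ighg1 from -0.26 to 0.82, Igkc from -0.54 to 0.42, Jchain from -0.15 to 0.53 and Mzb1 from -0.47 to 0.074. In flow cell B alone, 0.28 for Ighg1 and 1.39 for Ighg2c were found in ACEi against Veh, 0.68 for Pou2af1 in Anti-miR-21 against ACEi, -0.43 for Mzb1 in ACEi against WT, and, in Anti-miR-21 against WT, -0.060 for Igha, -2.67 for Ighg1, -0.12 for Ighg2b and -0.77 for Jchain. The causes were not tested.

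The difference in effective V segments between Veh and WT was 1.89 (heavy) and 1.13 (kappa) without the correction for depth, 9.65 and 7.15 from Shannon entropy, and -7.48 to 2.09 and -4.50 to 2.06 with 1 mouse left out. Between ACEi and Veh it was -0.173 to 14.2 (heavy) and -1.93 to 6.18 (kappa) with 1 mouse left out. Ighg and V segment counts were low in many libraries, which limits what could be detected. No paired analysis was possible because each mouse had its own name and replicate numbers were given in accession order only. Flow cell A alone was not run with ACEi, which had 1 library there.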

Other observations

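V segments used across mice stood beside some found in few mice. Ighv3-6 and Ighv1-53, among the 5 heavy chain V segments with the highest summed CPM, were above 0 in all 20 mice with medians of 6 and 6 counts. Among the kappa segments, Igkv1-110 and Igkv1-117 were above 0 in all 20 mice with medians of 38.5 and 34 counts. In contrast, Ighv2-6-8 was above 0 in 2 mice and Ighv5-16 in 7. The leading kappa segments of A17, A4 and A9 were found in most mice. Igkv5-43 was above 0 in 20 mice, with 45.8% of its counts in A17. Igkv6-15 was above 0 in 19 (87.3% in A4) and Igkv2-137 in 18 (60.1% in A9).

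In ACEi kidneys the B cell lists were higher than in WT for 7 of 11 identity genes, led by Spib (log2 fold change 3.60 ± 0.29), and for 7 of 8 plasma cell regulators and surface proteins, led by Slamf7 (2.77 ± 0.56). Against Veh, 2 of the 11 identity genes were lower, Fcer2a (-1.78 ± 0.49) and Cd22 (-0.91 ± 0.34). Iglc2, a lambda constant region gene, had a log2 fold change of 1.87 ± 0.51 in ACEi against WT (edgeR adjusted p = 0.00501), and 5 of 10 antibody receptor and transport genes were lower in ACEi than in Veh, led by Fcgr3 (-1.47 ± 0.26).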
